A study of Homo sapiens with 3 samples.

Results

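The genes described here are the MYC family and its dimerization network, 10 genes chosen by name: the paralogs MYC, MYCL and MYCN, their partner MAX, the repressors MXD1, MXD3, MXD4, MXI1 and MNT, and the MAX-like factor MLX. Each was found once among the 60609 genes of the deposited tables. RNA was sequenced from 3 libraries of NCI-H209, an established neuroendocrine small cell lung cancer line. Every library came from cells infected with a lentiviral Tet-pLKO-puro vector and given doxycycline at 1 µg/mL every 2 days. The libraries differed in the induced short hairpin RNA: sh490 and sh1362 are 2 hairpins against YES1, a Src-family kinase, and shGFP is the control hairpin against GFP. There was 1 library of each, and the time from induction to harvest was not stated in the labels. The hairpins form a group of n = 2 against n = 1. Whether these are separate cultures is not labelled, and a p-value then reflects only how far these libraries spread. Within the group that spread lies between 2 different hairpins, so it may be technical or particular to a hairpin.

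MYC, MYCL and MYCN are basic helix-loop-helix leucine zipper transcription factors that bind DNA only as dimers with MAX, most strongly at the E-box CACGTG, and drive genes of growth, ribosome production and metabolism. The MXD proteins, MXI1 and MNT compete for MAX, bind the same sites and recruit SIN3 corepressors and histone deacetylases. MLX stands in a parallel branch with the glucose-sensing factors MLXIP, also called MondoA, and MLXIPL, also called ChREBP. In small cell lung cancer 1 of the MYC paralogs is often amplified or highly expressed.

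Total counts were 4899006 in shGFP, 7791747 in sh490 and 7421552 in sh1362. YES1 had 1465, 163 and 216 counts in that order, and passed the test described below (log2 fold -3.60, edgeR adjusted p 0.00761). Markers of the label were expressed: all 8 neuroendocrine and all 4 epithelial markers were measured above 5 CPM (counts scaled to a fixed library total), with NEUROD1 at 158 TPM in shGFP. That level alone does not set the cells apart. Of 5 fibroblast and 4 endothelial markers, 1 each averaged at least 5 CPM, COL1A1 and KDR, at 7.16 and 16.4 CPM in shGFP. TPM are counts divided by gene length and then scaled to a fixed total in each library. Of the markers of other small cell subtypes, POU2F3 had 1, 0 and 0 counts in sh490, sh1362 and shGFP and YAP1 had 65, 11 and 64, log2 differences from shGFP of -0.65 and -2.90 (edgeR adjusted p 0.986). Among markers of other cells, globins held 3540 counts in shGFP against 147 and 150 in sh490 and sh1362. The 6 leukocyte markers summed to 5.12 CPM in shGFP against 0.38 and 1.63, with CD3E and CD68 at 0 counts in every library. Most of the sum in shGFP was S100A9, with 20 counts (4.09 CPM) against 1 and 0. LYZ had 3 counts in shGFP against 1 and 9, and PTPRC 2 against 0 and 3. Mitochondrially encoded genes took 5.47% of counts in shGFP, 5.50% in sh490 and 7.78% in sh1362.

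Both MYC and MYCL were expressed in the control cells, at levels that could not be ranked, and MYCN was not detected. MYC (ENSG00000136997.19, chromosome 8, 127735434 to 127742951 on the plus strand of GRCh38) had 272 counts in shGFP, or 46.4 TPM with an exact 95% counting interval of 41.1 to 52.3. MYCL (ENSG00000116990.11, chromosome 1, 39895426 to 39902256, minus strand) had 339 counts, or 52.4 TPM (46.9 to 58.3). The intervals overlap, and they cover counting error only, because reads lacking molecular identifiers cannot be taken as independent molecules. Among the detected protein-coding genes of the library MYC lay at percentile 74.3 and MYCL at 77. In bulk RNA, fewer cells expressing a gene and less RNA per cell cannot be told apart.

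MYCN (ENSG00000134323.12, chromosome 2, 15940550 to 15947007, plus strand) had 0 counts in all 3 libraries. The upper limit that 3 counts allow is 0.897 TPM in shGFP, 0.563 in sh490 and 0.553 in sh1362. The antisense gene MYCNOS and the neighbouring noncoding gene MYCNUT also had 0 counts in each library. The nearest expressed protein-coding genes around MYCN had many reads: DDX1, an RNA helicase, stood at 179.8 TPM and NBAS, a vesicle transport protein, at 36.7 TPM in shGFP.

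**Figure D1:**
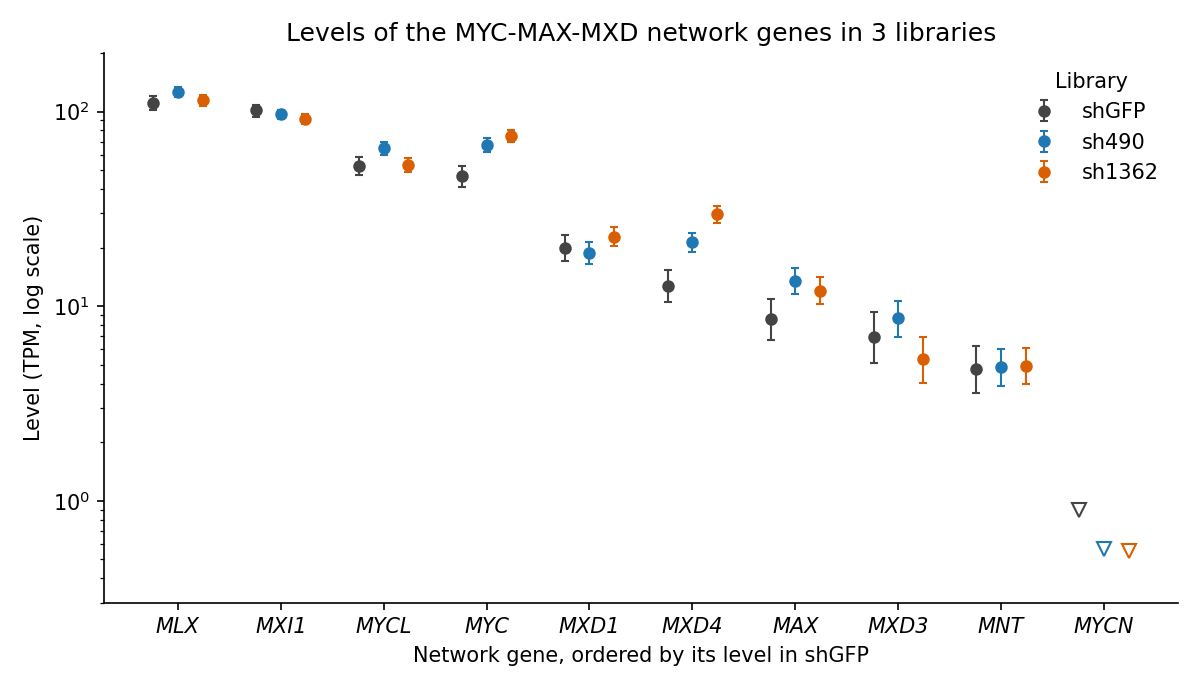
Level of each network gene in TPM (log axis) in the 3 libraries, with exact 95% Poisson intervals of the counts as bars. Open triangles mark the level equal to 3 counts where no read was seen. MLX and MXI1 lie highest, MYCL and MYC next, and MYCN has 0 counts in all 3 libraries.

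Which of MYC and MYCL leads depends on the library and on the length used. Within a library their ratio is free of scaling between libraries. Per length of all annotated exons, MYC stood at 0.886 times MYCL in shGFP (0.753 to 1.04), 1.04 times in sh490 (0.930 to 1.16) and 1.41 times in sh1362 (1.26 to 1.58). The control's interval includes 1 and that of sh1362 does not, so MYC led only in the sh1362 library by this measure. Divided by the longest annotated protein-coding transcript of each gene, 2366 bases for MYC and 3256 for MYCL, the control ratio became 1.10 (0.938 to 1.30), sh490 1.29 (1.16 to 1.44) and sh1362 1.76 (1.57 to 1.97). In reads alone MYC had fewer than MYCL in shGFP, 0.802 times (0.682 to 0.944). A dominant paralog in the control therefore cannot be named from these counts. Length is the same factor in every library, so on each scale the ratio was lowest in shGFP and highest in sh1362, with intervals of these 2 libraries that do not overlap. There was 1 library of each, so this orders libraries, not conditions.

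**Figure D2:**
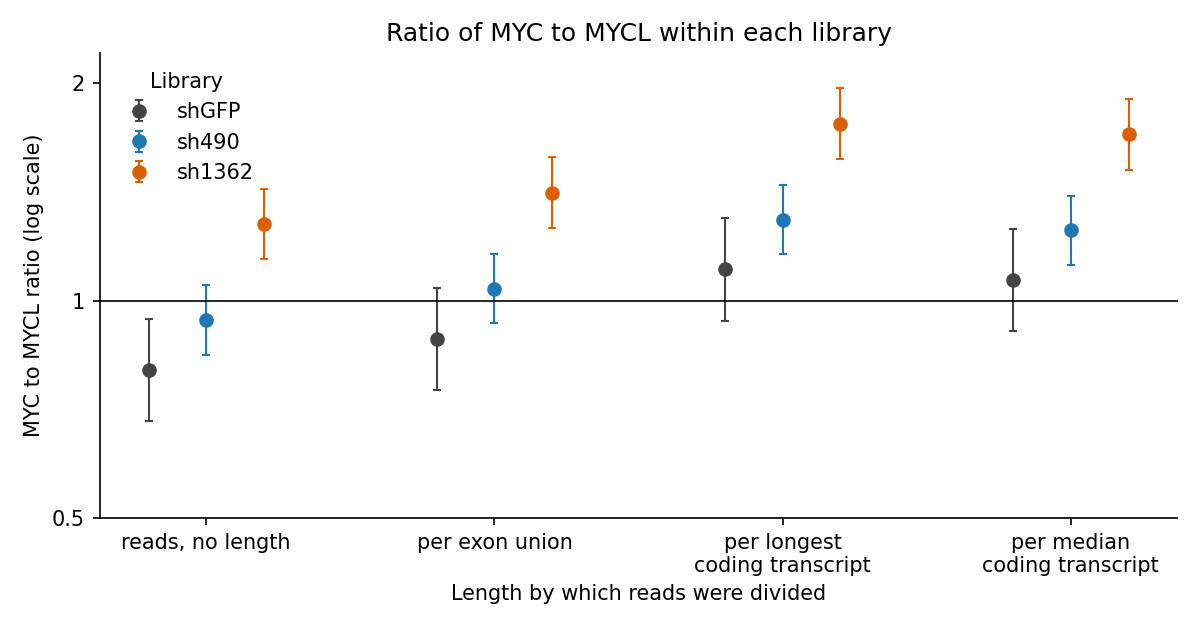
Ratio of MYC to MYCL (log axis) within each library, with exact 95% counting intervals, computed from reads and per 3 gene lengths. In shGFP the ratio runs from 0.802 to 1.10 with the length chosen, and in sh1362 it lies above 1 on all 4 scales.

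MYC was higher with both YES1 hairpins than with shGFP, without passing the test. It had 629 counts with sh490, 711 with sh1362 and 272 with shGFP, equal to 79.7, 96.8 and 55.7 CPM. Both hairpin libraries lay above the control and sh1362 was the highest. The ratio to shGFP was 1.43 with sh490, its counting interval running from 1.24 to 1.66, and 1.74 with sh1362 (1.51 to 2.01). In edgeR's quasi-likelihood test of both hairpins against shGFP MYC had a log2 fold of 0.64 (standard error 0.30) and an adjusted p of 0.986 (unadjusted 0.0643), with MYC higher in 2 of 2 hairpin libraries. Of the 11635 genes averaging at least 5 CPM, 9.79% had a log2 difference at least as high as that of MYC with sh490, and 6.81% with sh1362.

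MYCL differed less from the control than MYC did, and this difference between the genes was not tested. Its counts of 669, 557 and 339 equal 84.8, 75.9 and 69.4 CPM in sh490, sh1362 and shGFP. The ratio to shGFP was 1.22 with sh490 (1.07 to 1.40) and 1.09 with sh1362 (0.954 to 1.26), the second including 1. The edgeR log2 fold was 0.19 (standard error 0.29, adjusted p 0.986).

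MAX, the obligate partner of the MYC proteins, was among the lower members per length in every library. MAX (ENSG00000125952.20, chromosome 14, 65006174 to 65102695, minus strand) had 172 counts with sh490, 156 with sh1362 and 69 with shGFP, equal to 21.8, 21.2 and 14.1 CPM. The hairpin libraries lay close together and both above shGFP, at ratios of 1.54 (1.16 to 2.07) and 1.505 (1.13 to 2.03). The edgeR log2 fold was 0.59 (standard error 0.37, adjusted p 0.986). Of its annotated exon bases 16.1% are shared with genes on the opposite strand, FNTB among them, and reads there were left out, so its level is uncertain. Per length, the MYC paralogs summed to 98.8 TPM in shGFP, 11.5 times MAX, and MXD and MNT genes together to 145.7 TPM, 16.9 times MAX.

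Among the repressors, MXI1 held most of the transcripts and MXD4 differed most from the control. MXI1 (ENSG00000119950.21, chromosome 10, 110207605 to 110287365, plus strand), which antagonizes MYC, had 1163, 1118 and 765 counts in sh490, sh1362 and shGFP, or 96.6, 91.3 and 101.3 TPM. That was 64.3%, 59.3% and 69.5% of the summed TPM of MXD1, MXD3, MXD4, MXI1 and MNT. Between libraries both counting intervals of MXI1 included 1. Its CPM were 147.3 and 152.2 against 156.5, ratios of 0.941 (0.858 to 1.03) and 0.973 (0.886 to 1.07), and the edgeR log2 fold was -0.09 (adjusted p 0.993).

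MXD4 (ENSG00000123933.17, chromosome 4, 2247432 to 2262109, minus strand), a repressor of the MXD family found in differentiating and resting cells, had 298 counts with sh490, 422 with sh1362 and 112 with shGFP. These equal 37.8, 57.5 and 22.9 CPM. The 3 libraries stood apart from each other, shGFP lowest and sh1362 highest, with ratios to the control of 1.65 (1.32 to 2.07) and 2.51 (2.03 to 3.12) and of 1.52 (1.31 to 1.77) for sh1362 over sh490. Its edgeR log2 fold was 1.03 (standard error 0.38). The adjusted p was 0.986, and the unadjusted p of 0.0252 was among the lowest 1.97% of genes. The log2 difference with sh1362, 1.32, was reached by 1.31% of genes and that with sh490, 0.71, by 4.39%. In the control its share of the repressors' summed TPM was 8.75%, against 14.2% in sh490 and 19.2% in sh1362.

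MXD1 (ENSG00000059728.11, chromosome 2, 69897688 to 69942945, plus strand), induced in differentiating cells, had 244, 300 and 162 counts in sh490, sh1362 and shGFP, or 30.9, 40.9 and 33.1 CPM. It lay on either side of the control, at ratios of 0.933 (0.761 to 1.14) and 1.23 (1.01 to 1.501), and was higher with sh1362 than with sh490 by 1.32 (1.11 to 1.57). MXD3 (ENSG00000213347.10, chromosome 5, 177301461 to 177312757, minus strand), known for its expression in proliferating cells, had 91, 57 and 46 counts, or 11.5, 7.76 and 9.41 CPM, with intervals of both ratios to shGFP that include 1. It was lower with sh1362 than with sh490, at a ratio of 0.673 (0.475 to 0.948). Of its exon bases 40.2% are shared with RAB24 on the same strand or PRELID1 on the opposite one, which makes its level the least certain of the members. MNT (ENSG00000070444.15, chromosome 17, 2384073 to 2401104, minus strand), a broadly expressed MAX-binding repressor, was the lowest detected member per length, with 86, 89 and 53 counts, or 10.9, 12.1 and 10.8 CPM, and both its ratios included 1. For MXD1, MXD3 and MNT the edgeR adjusted p was 0.994, 0.999 and 0.998.

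**Figure D3:**
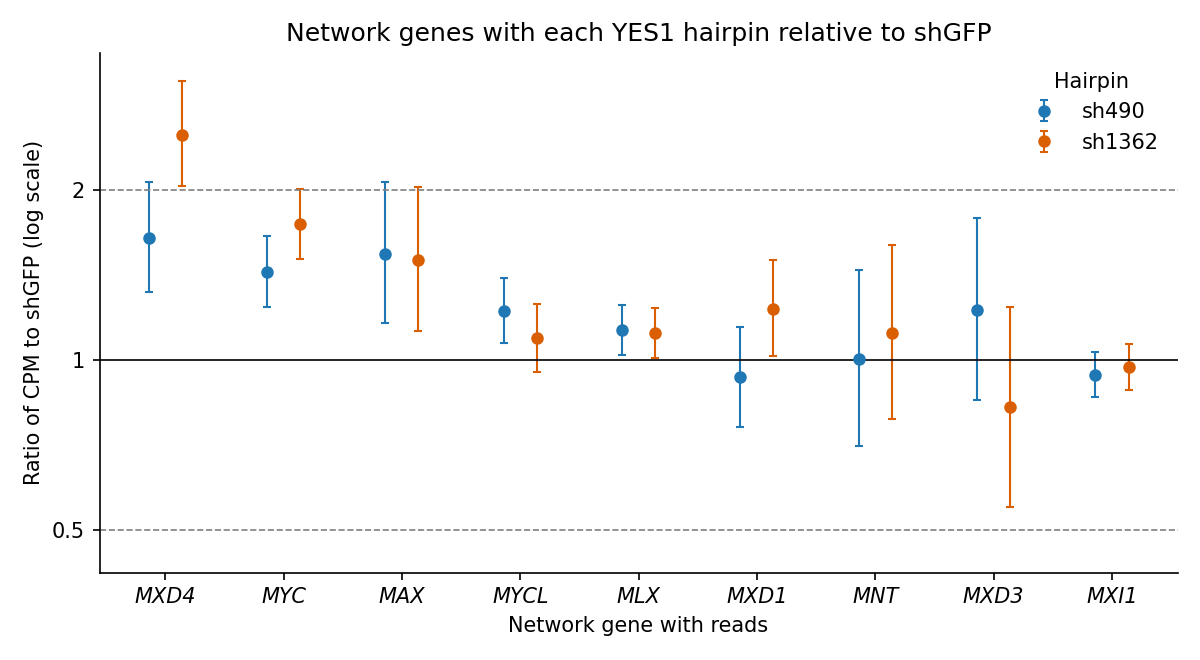
Ratio of normalised CPM with each YES1 hairpin to shGFP (log axis) for the 9 network genes with reads, ordered by the edgeR fold, with exact 95% counting intervals; dashed lines mark 2-fold. MXD4, MYC and MAX lie above 1 with both hairpins, MXI1 lies near 1, and MXD1 and MXD3 differ in side between hairpins.

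In the parallel branch, MLX was the highest member per length. MLX (ENSG00000108788.11, chromosome 17, 42567068 to 42573239, plus strand) had 1096, 1009 and 601 counts in sh490, sh1362 and shGFP, or 126.3, 114.3 and 110.4 TPM. In CPM the libraries were close, at 138.8, 137.4 and 123.0, ratios of 1.13 (1.02 to 1.25) and 1.12 (1.01 to 1.24) and an edgeR log2 fold of 0.15 (standard error 0.27, adjusted p 0.986). PSMC3IP on the opposite strand shares exon bases with MLX, 18.1% of the total. MLXIP, the MondoA partner of MLX, stood at 28.5 TPM in shGFP and differed by log2 0.04 with sh490 and 0.47 with sh1362. MLXIPL had only 3, 10 and 9 counts in sh490, sh1362 and shGFP. MGA, which joins MAX to a polycomb repressor complex, stood at 27.0 TPM in shGFP and differed by log2 -0.02 and 0.06. The MondoA targets TXNIP, which restrains glucose uptake, and ARRDC4 had log2 differences of -0.32 and 0.41, and of 0.61 and 0.35.

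Ordered per length, MLX, MXI1, the MYC and MYCL pair, the MXD1 and MXD4 pair, MAX, MXD3, MNT and MYCN followed each other in every library. Only the order within the pairs changed. In shGFP the counting intervals of neighbours overlapped for MLX and MXI1, for MYCL and MYC, and along the run from MXD4 through MAX and MXD3 to MNT, so those neighbours are not separated. The summed TPM of MYC and MYCL was 0.678 times that of the MXD and MNT genes in shGFP, 0.880 times in sh490 and 0.831 times in sh1362. TPM is compared here only between genes of 1 library, because mitochondrial and globin genes took 21.3% of all TPM in shGFP, 21.4% in sh490 and 27.1% in sh1362.

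Counted together, no member passed the test of both hairpins against shGFP. Of the 10 genes, 9 passed the filter on low counts and MYCN did not. By edgeR 0 of the 9 were called at an adjusted p under 0.05, where 0.0255% of 15708 genes were called. At an unadjusted p under 0.05 there was 1 member, MXD4, where 4.35% of all genes lay, and 2.27% of all genes were higher as MXD4 was. DESeq2, limma-voom and edgeR run on unfiltered counts called 0 members too. Over all genes these fits called 5, 2 and 58.

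By size alone, 0 of 9 members were 2-fold higher with sh490, where 1.5% of 11635 genes were, and 1 of 9, MXD4, was 2-fold higher with sh1362, where 3.56% were. None was 2-fold lower, where 1.31% and 5.6% of genes were. The hairpins share the control, so their values are given side by side: 7 of 9 members lay above it with each, where 52.8% of all genes did with sh490 and 51.1% with sh1362. One of the 7 with sh490 is MNT, whose log2 difference of 0.0065 became -0.00705 with RLE scaling. The median log2 difference of the members was 0.28 with sh490 and 0.16 with sh1362, beside 0.02 and 0.01 over all genes. Counting intervals lay above 1 for 5 of 9 members with sh490, where 22.5% of genes did, and for 5 of 9 with sh1362, where 28.3% did, and below 1 for 0 of 9 with either, where 20.2% and 27.8% did. Between the hairpins 0 members were 2-fold apart, where 5.9% of genes were. With counting intervals off 1, MXD4, MXD1 and MYC were higher with sh1362 and MXD3 lower. These are 4 of 9 members beside 55.4% of genes, with 3 above 1 beside 26.3% and 1 below beside 29.1%. The shGFP library, to which both hairpins were compared, was also the shallowest and the one with most globin reads. The part of depth, of globin reads and of reads of leukocyte markers, mostly S100A9 in shGFP, in these differences was not tested. Leaving out mitochondrial and globin genes drops only those genes, so it cannot show whether reads from other cells add to the members' counts. The edgeR log2 folds were then 0.64 for MYC, 0.59 for MAX and 1.03 for MXD4.

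The promoters of the members were searched for the E-box to which the network's dimers bind. The windows run from 250 bases before to 50 bases after each annotated start and are credited to RefSeq (GRCh38.p14), where 9 of the 10 members matched, with 12 windows in all. MYC had no match, so its promoter was not searched. CACGTG reads the same on both strands, and it was present in 3 of the 12 windows, 25%, against 7.26% of all 35116 windows and 9.48% of those of genes averaging at least 5 CPM. The 3 members with a match were MXD4, MLX and MNT. All 3 are shown. Of them MXD4 differed most from the control, while MLX and MNT stayed within 1.13-fold of it. A match is a description and not a bound site, and no match says only that these letters are absent from the window. The sites are printed 5′ to 3′ on the gene's strand with the E-box in capitals, first for MXD4 with its whole window (chr4:2262060-2262359, minus strand, E-box starting 238 bases before the start site), then for MLX (chr17:42567030-42567075, plus strand, 50 bases before) and MNT (chr17:2401228-2401273, minus strand, 193 bases before).
MXD4: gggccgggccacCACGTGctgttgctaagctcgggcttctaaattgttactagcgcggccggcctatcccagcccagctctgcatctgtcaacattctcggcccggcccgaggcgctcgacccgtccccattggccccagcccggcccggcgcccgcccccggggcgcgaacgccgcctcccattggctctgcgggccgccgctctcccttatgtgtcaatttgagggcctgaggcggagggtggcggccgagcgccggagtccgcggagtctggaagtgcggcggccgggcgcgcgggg
MLX: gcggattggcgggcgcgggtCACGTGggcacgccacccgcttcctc
MNT: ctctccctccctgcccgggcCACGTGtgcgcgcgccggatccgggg

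Genes around the paralogs were listed by position, because amplification of a paralog usually takes its neighbours along. Within 500000 bases of MYCL lie 18 protein-coding genes, and 14 of them averaged at least 1 CPM, with a median of 53.7 TPM in shGFP beside 52.4 for MYCL itself. The 3 nearest were TRIT1, a tRNA-modifying enzyme, at 67.2 TPM, the lipid transporter MFSD2A at 51.9 and the growth factor BMP8B at 43.9. With sh490 and sh1362 they differed from shGFP by log2 -0.01 and -0.08, -0.59 and -0.59, and 0.03 and -0.48. The 14 neighbours had median log2 differences of 0.01 and -0.28, where MYCL had 0.29 and 0.13. Around MYC the single protein-coding gene in the window, POU5F1B, had 2 counts in each library. The noncoding gene PVT1, which lies 51575 bases from MYC and is named outside the rule, had 172 counts with sh490, 218 with sh1362 and 99 with shGFP, log2 differences of 0.10 and 0.54, against 0.52 and 0.80 for MYC. RNA levels of neighbours do not measure copy number.

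The proteins through which the network acts were then described by lists, none of whose members passed the edgeR test (0.0255% of all genes did). Counts above shGFP are given for each hairpin and read beside the 52.8% and 51.1% of all genes above it. Of 14 genes of the SIN3 corepressor complex, recruited by MXD proteins and MNT, 6 lay above shGFP with sh490 and 5 with sh1362, with median log2 differences of -0.07 and -0.18. BRMS1, a subunit of that complex, had log2 differences of 0.68 and 0.80, HDAC1 0.22 and 0.23, the scaffold SIN3A -0.28 and -0.49, and ARID4A -0.31 and -0.24. RBBP7 and HDAC2 differed more between the hairpins, at -0.11 and -0.59, and 0.07 and -0.47. Of 15 genes of the MGA-MAX polycomb complex, 12 lay above shGFP with sh490 and 9 with sh1362, with medians of 0.20 and 0.21. RING1, a ubiquitin ligase of histone H2A, had 0.77 and 0.84, E2F6 0.45 and 0.48, WDR5 0.30 and 0.44, and YAF2 -0.25 and -0.70, while RNF2 had 0.20 and -0.61. No gene of either list was 2-fold apart from shGFP. Of all genes 1.5% were 2-fold higher and 1.31% lower with sh490, and 3.56% and 5.6% with sh1362. HDAC1 and HDAC2 stand in both lists, and WDR5 also among the coactivators described next.

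Of 12 MYC coactivators, 6 lay above shGFP with sh490 and 5 with sh1362, with medians of 0.01 and -0.08. ZBTB17, which encodes MIZ1, the factor through which MYC represses genes, had 138, 87 and 43 counts in sh490, sh1362 and shGFP, log2 differences of 0.97 and 0.42. The acetyltransferase KAT5 had 0.40 and 0.40, HCFC1 -0.25 and -0.49, and KAT2A -0.24 and 0.13. Of 15 genes of MYC protein turnover, 8 lay above shGFP with sh490 and 5 with sh1362, with medians of 0.03 and -0.11. FBXW7, the ubiquitin ligase receptor that marks MYC for degradation, had -0.36 and -0.39, and SKP2, another such receptor, 0.13 and 0.59. AURKA, a mitotic kinase that shields MYCN from degradation, had -0.13 and -0.82, CIP2A, which protects MYC from dephosphorylation, -0.42 and -1.07, PLK1 0.52 and -0.96, and GSK3A 0.41 and -0.05.

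Among regulators of messenger RNA, LIN28B lay lowest. LIN28B, which blocks maturation of the let-7 microRNAs that repress MYC and MYCN, had 95 counts with sh490, 56 with sh1362 and 114 with shGFP, log2 differences of -0.94 and -1.58. Both hairpin libraries lay below the control (edgeR log2 fold -1.27, standard error 0.42, adjusted p 0.986, unadjusted 0.0169). LIN28A had 0, 0 and 2 counts and IGF2BP1, which stabilizes MYC messenger RNA, 0, 2 and 0. Its relatives IGF2BP3 and IGF2BP2 had log2 differences of 0.31 and 0.40, and of -0.09 and -0.29, ELAVL1 had 0.25 and 0.24, and HNRNPD -0.15 and -0.07.

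Genes known to be induced by MYC lay on both sides of the control. Of 40 such genes, 37 averaged at least 5 CPM, 24 of those lay above shGFP with sh490 and 24 with sh1362, and the medians were 0.05 and 0.12, beside 0.02 and 0.01 over all genes. None was 2-fold higher with either hairpin, where 1.5% and 3.56% of all genes were. With sh1362 3 of the 37 were 2-fold lower, where 5.6% of all genes were. Ranked by the smaller of its 2 differences, PES1, a ribosome assembly factor, was farthest above the control, at 0.66 and 0.69. Lowest on the same measure were CDC25A, a phosphatase that starts S phase, at -0.70 and -1.84, CCND2, which encodes cyclin D2, at -0.63 and -1.33, and the translation helicase EIF4A1 at -0.88 and -1.28. EIF4A1 had only 42, 29 and 49 counts, and whether reads of this gene were lost to near-identical copies or overlapping genes was not tested, so its level is uncertain. CAD and MYBBP1A differed between the hairpins, at 0.20 and -0.67, and 0.50 and -0.22.

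Of 10 genes known to be repressed by MYC, 7 averaged at least 5 CPM, 3 of those lay above shGFP with sh490 and 1 with sh1362, and the medians were -0.74 and -0.54, beside 0.02 and 0.01 over all genes. GADD45A, a growth arrest gene induced by stress, had 1306 counts with sh490, 1191 with sh1362 and 2133 with shGFP, although shGFP was the shallowest library. Its log2 differences were -1.40 and -1.43 (edgeR adjusted p 0.858, unadjusted 0.000437). Among edgeR, DESeq2, limma-voom and edgeR on unfiltered counts, the tests read for it here, GADD45A passed the last alone (adjusted p 0.000979). THBS1, a matrix protein that restrains vessel growth, had -1.27 and -1.81, and among the same tests also passed only without that filter (edgeR adjusted p 0.986 and 0.0189). CCND1 had -0.89 and -0.54 and NDRG1 -0.74 and -0.49, while CDKN1A, the p21 inhibitor of cell cycle kinases, had 0.16 and -0.38 and NDRG2 0.56 and -0.66. GADD45A, THBS1 and CCND1 also respond to signals other than MYC.

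**Figure D4:**
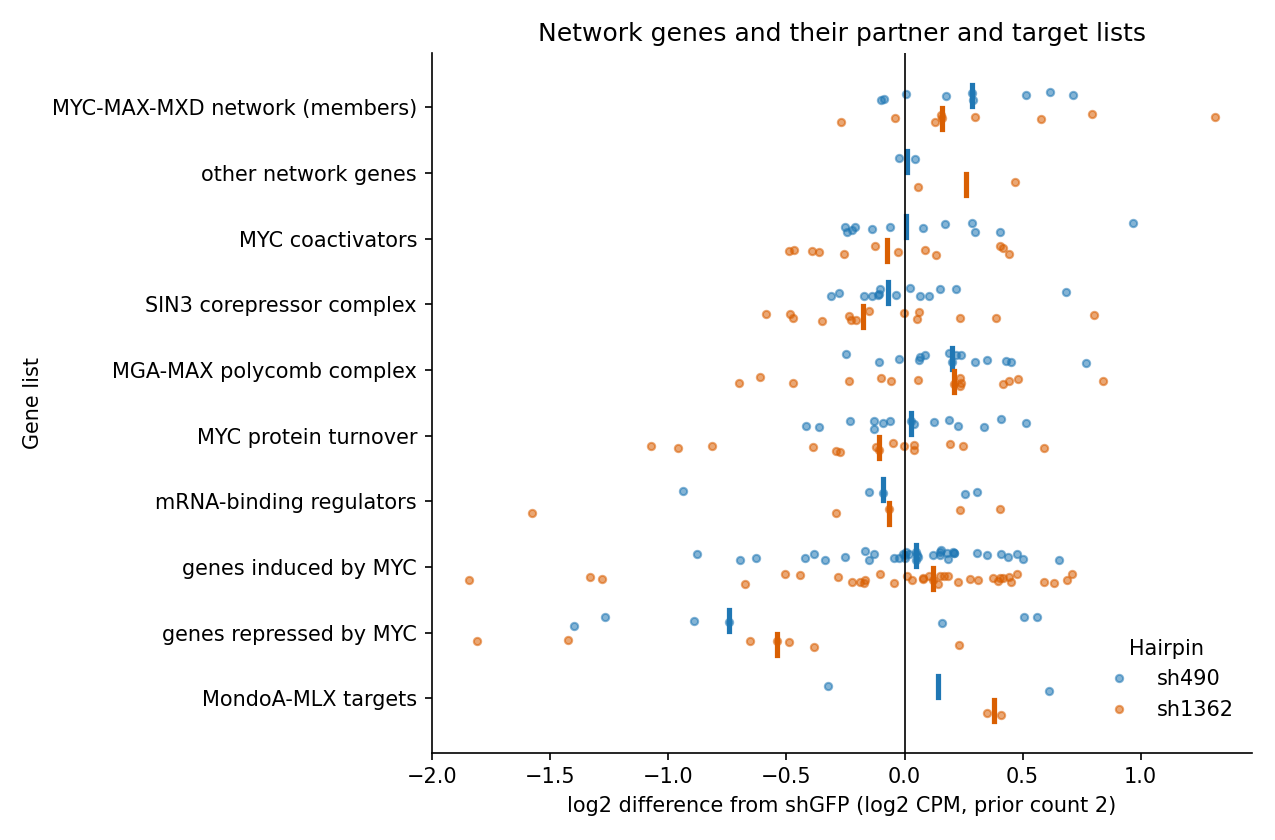
log2 difference of each hairpin from shGFP for genes averaging at least 5 CPM, in the network and in the lists of partners and targets; points are genes and thick bars are list medians. Medians of the lists of MYC-induced genes lie at 0.05 and 0.12 and those of MYC-repressed genes at -0.74 and -0.54.

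Genes with values close to those of MYCL, the paralog highest per length of all exons in shGFP, were listed. By distance between pairs of log2 differences from shGFP over 3 libraries, the nearest of 10963 protein-coding genes were ERICH5, TEX261 and REPS2, at 0.01 each, and 275 genes lay within 0.1. Within the same distance of MYC there were 62 genes and of MXD4 14 genes, taken outside the naming rule. These numbers fell with the distance of the reference gene from the control, which was smallest for MYCL. With 3 libraries and a shared control such likeness describes these libraries only.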

How the data were processed

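Poly(A) RNA was sequenced after SMARTer library preparation, per the labels' protocols. STAR 2.6.1c and FastQC 0.11.8 are named in the submitters' processing notes. The deposited counts are unnormalized whole reads for each gene from featureCounts 1.6.0 with GENCODE 32 on GRCh38, per the file headers, counted without strand. The gene lengths deposited beside them are unions of exons. Symbols came from a name table and biotypes and transcript lengths from GENCODE 29.

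From the counts, TPM compared genes within a library, and CPM on TMM-scaled totals compared libraries. Log2 differences of single libraries used a prior count of 2 and genes averaging at least 5 CPM. Intervals on counts are exact 95% Poisson, and those on ratios exact conditional binomial. The test was edgeR 4.0.16 (quasi-likelihood, R 4.3.3, filterByExpr) of shYES1 (n = 2) against shGFP (n = 1), with Benjamini-Hochberg adjustment over all genes tested. It has 1 residual degree of freedom, and the single shGFP library is assumed to vary like the hairpin libraries. The test gives no standard error, so those printed are the absolute log2 fold divided by the square root of its F statistic. Alternatives were DESeq2 1.42.0, limma-voom (limma 3.58.1), RLE scaling, library totals, other filters and prior counts, leaving out mitochondrial and globin genes or 1 hairpin library, and other gene lengths, windows and motifs. The median log2 difference of all genes was 0.02 with sh490 and 0.01 with sh1362.

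The members and lists were chosen with earlier results of these data known. All members are named. Of each longer list, the 4 genes with the largest difference shared in direction by both hairpins and the 2 with the largest difference between hairpins are named. Lists of up to 3 genes are named whole. For each paralog the 3 nearest expressed protein-coding neighbours are named, and the 3 genes most like the highest paralog in shGFP. A gene that this rule selects among the coactivators is not reported here.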

Additional observations from a re-analysis of the deposited data

How the results depend on the processing

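Precision is limited by 1 library per hairpin, by 4899006 counts in shGFP and by the low counts of MAX, MXD3 and MNT. No paired analysis was possible because there is 1 control library and the labels give no replicate numbers. Over 7 alternative fits of the 9 members with a test, 63 values in all, 1 changed direction: MXD3 stood at -0.014 with limma-voom. No member was called in any of these fits. MXD4 ranged from 0.99 to 1.06 (adjusted p 0.354 to 1.00) and MYC from 0.63 to 0.67 (adjusted p 0.916 to 1.00). With 1 hairpin library left out there is no residual degree of freedom, so values have no test: MXD1 ranged from -0.10 (without sh1362) to 0.30, MXD3 from -0.27 (without sh490) to 0.28, MYC from 0.52 to 0.80 and MXD4 from 0.71 to 1.32. The other members kept their direction. The count of genes called, 4 by edgeR, became 58 without a filter on low counts, 2 with limma-voom and 1 without mitochondrial and globin genes, where called globins are left out by construction. With a mean of 1 CPM or more, genes 2-fold higher and lower numbered 613 and 511 with sh490, 1044 and 1137 with sh1362, and 721 and 872 between hairpins, since more genes with low counts enter. None of the 135 alternative values of members by size moved beyond its counting interval. The ratio of MYC to MYCL, by lengths chosen after seeing the data, was 1.10, 1.29 and 1.76 in shGFP, sh490 and sh1362 per longest coding transcript, and 1.07, 1.25 and 1.70 per median coding transcript. MYCL had 22 expressed protein-coding neighbours within 1000000 bases. Any CANNTG was present in 66.7% of member windows and 68.7% of all windows. Leaving mitochondrial and globin genes out of TPM raised 25 of 30 member levels beyond their counting interval.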
